A study of Homo sapiens with 6 samples.

Results

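The epidermal growth factor (EGF) receptor family and its ligands are described here through 8 genes of 22984 with a sense row in each library: the receptors EGFR, ERBB2 and ERBB3, the ligands AREG, EREG, TGFA and HBEGF, and the receptor inhibitor ERRFI1. They were chosen by name, and each had 1 row. Nascent RNA of HCT116 cells, an established human colorectal carcinoma line, was measured by Bru-seq, in which RNA made during a 30 min pulse of bromouridine is captured and sequenced, so that the values follow transcription over exons and introns and not the store of mature mRNA. The 6 libraries came from 2 cultures in 0.01% DMSO for 4 h, 1 culture with siRNA against GSTO1 (glutathione S-transferase omega 1) at 10 nM for 24 h, 1 each with the GSTO1 inhibitor C1-27 at 1 μM for 4 h and 24 h, and 1 with the compound C1-14 at 10 μM for 4 h. No other genetic change or agent is given for any group. The DMSO cultures were thus the only replicates, and no non-targeting siRNA and no DMSO culture of 24 h was analysed here, so a 24 h treatment and 24 h in culture cannot be told apart. Loss of GSTO1 and other effects of siRNA treatment cannot be told apart either.

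Receptors of this family sit in the plasma membrane and signal as dimers. A ligand, shed from a membrane-bound precursor, brings 2 receptors together, their kinases phosphorylate the tails, and adaptors pass the signal to the RAS, RAF and ERK cascade and to PI3K and AKT. ERBB2 binds no known ligand and ERBB3 has a weak kinase, so that both work mainly as partners. In the intestinal epithelium, EGFR ligands such as epiregulin and amphiregulin support the growth of crypt cells, and ERRFI1 (MIG6) closes a feedback loop by binding the kinase domain of EGFR.

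The promoters of 4 members are shown because EREG and ERRFI1 had the highest transcription per length in the family, AREG is the neighbour of EREG, and EGFR was the receptor with the lowest ratio to DMSO after siGSTO1. Each sequence holds the 250 bases before the RefSeq start site (GRCh38.p14), 5′ to 3′ along the gene, and capitals mark the motif matches named below.
EGFR (chr7:55018767-55019016, plus strand): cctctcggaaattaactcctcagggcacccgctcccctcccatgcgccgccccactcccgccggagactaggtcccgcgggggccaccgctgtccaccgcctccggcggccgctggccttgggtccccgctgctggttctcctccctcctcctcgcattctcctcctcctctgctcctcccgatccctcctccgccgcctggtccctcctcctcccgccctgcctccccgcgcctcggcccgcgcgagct
EREG (chr4:74364895-74365144, plus strand): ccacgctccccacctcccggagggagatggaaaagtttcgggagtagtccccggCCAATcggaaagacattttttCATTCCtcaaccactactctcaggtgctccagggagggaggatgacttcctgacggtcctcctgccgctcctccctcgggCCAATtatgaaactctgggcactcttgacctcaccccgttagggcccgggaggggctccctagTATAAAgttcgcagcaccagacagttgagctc
AREG (chr4:74444886-74445135, plus strand): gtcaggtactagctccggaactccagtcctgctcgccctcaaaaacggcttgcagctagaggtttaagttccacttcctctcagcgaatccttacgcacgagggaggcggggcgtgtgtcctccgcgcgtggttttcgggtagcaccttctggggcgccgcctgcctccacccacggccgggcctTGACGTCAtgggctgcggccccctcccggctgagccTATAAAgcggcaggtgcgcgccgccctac
ERRFI1 (chr1:8026310-8026559, minus strand): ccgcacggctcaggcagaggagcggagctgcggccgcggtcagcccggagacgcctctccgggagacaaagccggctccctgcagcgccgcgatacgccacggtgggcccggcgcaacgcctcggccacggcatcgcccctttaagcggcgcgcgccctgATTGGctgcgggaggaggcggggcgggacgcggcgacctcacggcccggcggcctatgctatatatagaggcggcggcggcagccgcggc

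Promoter windows were found for 7 of the 8 members, all but ERBB3, and where RefSeq gave 2 windows (EGFR and TGFA) the first listed was used. EREG and AREG, neighbours on chromosome 4, both held the TATA box core TATAAA, from base -32 in EREG and from base -29 in AREG, a motif found in 11.1% of 27305 promoters of this length. Only this exact string was searched for. The ERRFI1 window holds tatatata near its 3′ end, a similar string that was not searched for and is unmarked. AREG also held TGACGTCA, the full cyclic AMP response element, which 1.77% of promoters held. CCAAT, bound by NF-Y, was present in EREG, ERRFI1 and ERBB2 and in 33% of promoters. EREG held 1 match to GGAATG, the core bound by TEAD factors (11.9% of promoters), ERBB2 held 1 to the AP-1 motif TGANTCA (6.6%), and no member held TGACNNNGC, the core of the antioxidant response element (11%). Both strands were searched, and matches to TGANTCA and TGACNNNGC can overlap. EGFR, TGFA and HBEGF held none of the 6 motifs, and their windows were 73.6%, 75.6% and 76.4% G and C, with 75.2% in ERRFI1, against 58% in EREG and a median of 58% over all promoters.

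All positions below are hg19, and each row spans the whole gene, exons and introns. The receptors were EGFR (chr7:55086725-55275031, plus strand), ERBB2 (chr17:37844393-37884915, plus) and ERBB3 (chr12:56473809-56497291, plus). The ligands were AREG (chr4:75310853-75490485, plus), EREG (chr4:75230860-75254477, plus), TGFA (chr2:70674412-70781147, minus) and HBEGF (chr5:139712428-139726188, minus). The inhibitor ERRFI1 lay at chr1:8071779-8086393 on the minus strand.

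Sense counts summed to 18112861 and 32906297 in the DMSO libraries and to 20214413 to 36841146 in the treated ones. GSTO1 itself had 3.51 and 3.72 RPKM (reads per kilobase of gene, scaled to the mapped reads of the library) in DMSO, 2.70 after siGSTO1 and 3.78 to 4.21 after the compounds, and the log2 difference for siGSTO1 was -0.54 (SE 0.27), which did not pass edgeR's quasi-likelihood test (adjusted p = 0.314). An siRNA acts on mature RNA, so nascent RNA is no full check of the knockdown. The 6 epithelial markers summed to 14.1 to 32.5 RPKM per library, with CDH17 below 0.1 everywhere, whereas 3 leukocyte markers summed to at most 0.0295, 3 fibroblast markers to at most 0.315 and 3 endothelial markers to at most 0.377 RPKM.

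The 8 genes spanned a wide range of transcription, and the order was similar in all libraries. ERRFI1 and EREG, the gene of epiregulin, were the 2 highest, at 18.7 to 32.5 and 14.7 to 23.7 RPKM, and which came first changed between libraries. By mean RPKM they stood at the 99.7th and the 99.6th percentile of all genes. EGFR ranked 3 of 8 in all 6 libraries, at 1.12 to 1.69 RPKM, and TGFA ranked 4, at 0.880 to 1.05 RPKM, with no overlap between these ranges. HBEGF (0.310 to 0.461 RPKM), ERBB2 (0.334 to 0.434) and ERBB3 (0.258 to 0.534) overlapped, so their order was not fixed. Among the ligands, EREG exceeded TGFA 16.4-fold to 26.7-fold and HBEGF 36.3-fold to 64.3-fold within a library.

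AREG, the gene of amphiregulin, was lowest in all 6 libraries, at 0.0296 to 0.0445 RPKM, but its level per length cannot be set beside the others. Its row spans 179633 bp, 18.2 times the 9870 bp of AREG in RefSeq, so its 184 to 248 reads per library were divided by a length that is mostly not AREG. The row takes in the place of the near-identical copy AREGB, which has no row of its own. How reads of the 2 copies were shared is not given in the sources used here. The share of reads from AREG itself was not measured, so its counts and fold changes are those of the whole row. The other 7 rows were 0.978 to 1.00 times their RefSeq length.

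**Figure D1:**
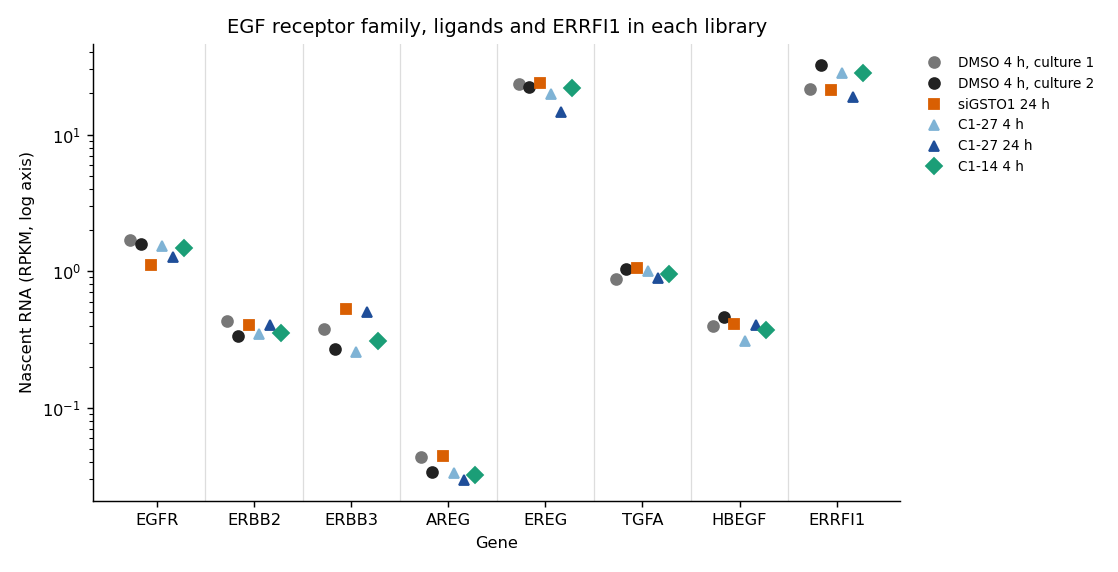
Level of each gene in each library (RPKM, log axis), 1 point per library, with both DMSO cultures in grey and black. EREG and ERRFI1 sit above 14 RPKM in every library, and ERBB3 is highest in the siGSTO1 and 24 h C1-27 libraries, at 0.534 and 0.506 RPKM.

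Reads on the opposite strand were few for most members. They came to 0.278% of sense reads for EGFR over all libraries, 0.222% for EREG, 0.0370% for TGFA, 0.265% for HBEGF and 0.0220% for ERRFI1. The share was 10.9% for ERBB2, 10.98% for ERBB3 and 23.5% for AREG, and ranged between libraries from 14.3% to 34.2% for AREG. These values were not tested.

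The first question was whether transcription of the receptors and ligands differed after siRNA against GSTO1. No member passed edgeR's test for siGSTO1 against DMSO: 0 of 8 had an adjusted p under 0.05, against 4.91% of 14431 genes tested, and DESeq2 also called 0 of 8. At an unadjusted p under 0.05 stood 1 of 8 members, against 15.2% of all genes. That was EGFR.

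EGFR had 1.69 and 1.58 RPKM in the DMSO cultures, 1.12 after siGSTO1, 1.52 and 1.28 after C1-27 for 4 h and 24 h, and 1.47 after C1-14. All 4 treated cultures lay below both DMSO cultures (1.64 ± 0.0766 RPKM, SD, n = 2), with siGSTO1 lowest and 24 h of C1-27 next. For siGSTO1 the RPKM ratio to the DMSO mean was 0.681, or 0.660 and 0.705 against each culture. The fitted log2 fold change was -0.67 (SE 0.27, 95% interval -1.20 to -0.14, edgeR unadjusted p = 0.0138, adjusted p = 0.159), and over 6 settings of the count test the adjusted p ran from 0.159 to 0.297. In bulk RNA, fewer cells transcribing the gene and less RNA per cell cannot be told apart. In the other comparisons with DMSO the EGFR log2 fold change was -0.08 with 4 h of C1-27, -0.41 (95% interval -0.93 to 0.11) with 24 h of C1-27 and -0.14 with C1-14, and none passed.

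ERBB3, a receptor for neuregulins that pairs with ERBB2, lay higher at 24 h, without passing the test. It had 0.375 and 0.269 RPKM in DMSO (206 and 258 reads), 0.534 after siGSTO1 (329 reads), 0.506 after C1-27 for 24 h (546 reads), and 0.258 and 0.307 after C1-27 and C1-14 for 4 h (234 and 250 reads). The 24 h cultures were the highest of the 6. Against DMSO the fitted log2 fold change was 0.64 (SE 0.39, adjusted p = 0.467) for siGSTO1 and 0.62 (SE 0.38, adjusted p = 0.9999) with 24 h of C1-27, and neither passed. The DMSO cultures themselves differed 1.39-fold.

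ERBB2 had 0.434 and 0.334 RPKM in DMSO and 0.346 to 0.407 in the treated cultures. Every treated value thus lay between the DMSO values. Its log2 fold changes against DMSO were -0.11 to 0.05, and each 95% interval held a 1.4-fold change in both directions, the widest limits being -0.77 and 0.69.

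Within a library, where scaling cancels, EGFR was 4.51 to 5.91 times ERBB3 in the 4 h cultures, and 2.09 times after siGSTO1 and 2.52 times after C1-27 for 24 h. ERBB2 was 1.15 to 1.34 times ERBB3 in the cultures of 4 h, and 0.761 and 0.806 times in those of 24 h. Both ratios were thus lower in each 24 h culture than in any 4 h culture. This pattern was noticed in the values, and was not tested. The ratios share ERBB3 as the denominator, so they are not independent, and the ERBB3 differences from DMSO did not pass the test.

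**Figure D2:**
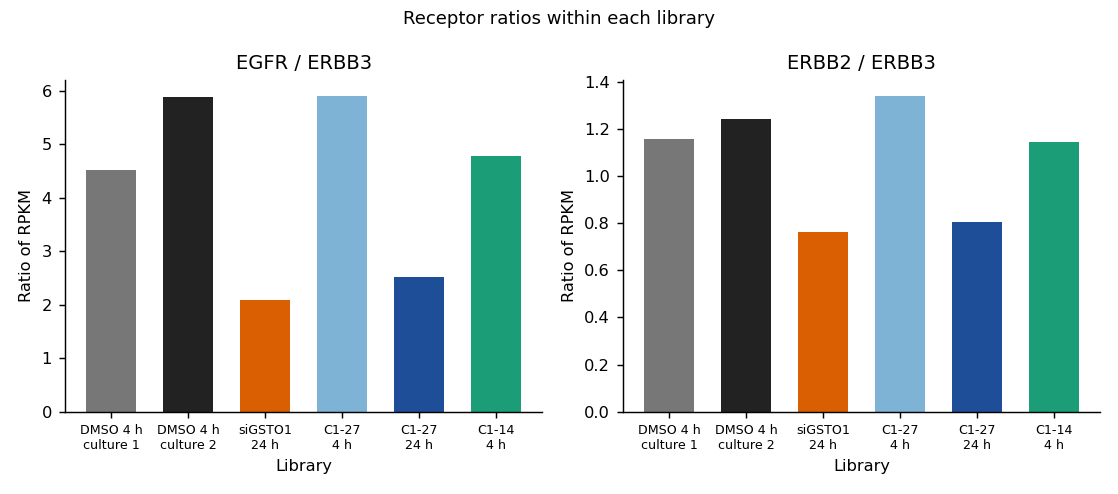
Ratio of RPKM of EGFR to ERBB3 (left) and of ERBB2 to ERBB3 (right) in each of the 6 libraries, 1 bar per library, axes from 0. The siGSTO1 and 24 h C1-27 bars are the lowest in both panels, at 2.09 and 2.52 for EGFR and at 0.761 and 0.806 for ERBB2.

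No ligand passed the test with siGSTO1. EREG had 23.5 and 22.5 RPKM in DMSO and 23.7 after siGSTO1, a log2 fold change of -0.07 in edgeR (95% interval -0.64 to 0.50). TGFA, which encodes transforming growth factor alpha, had 0.880 and 1.05 RPKM in DMSO and 1.05 after siGSTO1 (log2 fold change 0.01, 95% interval -0.48 to 0.49). HBEGF, for the heparin-binding ligand, had 0.395 and 0.461 RPKM in DMSO and 0.412 after siGSTO1 (log2 fold change -0.18, 95% interval -1.09 to 0.72). Counts of the long AREG row, which is mostly not AREG, were 184 and 248 in DMSO and 210 after siGSTO1. Its log2 fold change was 0.10 (95% interval -0.74 to 0.95).

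ERRFI1 had 21.7 and 32.5 RPKM in DMSO, the only member with a mean RPKM above 0.5 whose DMSO cultures differed by 1.4-fold or more (1.498-fold). Between these cultures 19.1% of all genes passed 1.4-fold. After siGSTO1 it had 21.1 RPKM, just under the lower DMSO culture, with a log2 fold change of -0.48 (SE 0.28, adjusted p = 0.431).

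A second measure was the RPKM ratio to the mean of the DMSO cultures, with 1.4-fold as the limit and a mean RPKM above 0.5, which has no test. The filter left EGFR, EREG, TGFA and ERRFI1 in all 4 comparisons. With siGSTO1, 1 member (EGFR, lower) passed 1.4-fold, against 16.9% of all genes that passed the filter. ERBB3, at 1.66-fold the DMSO mean and 1.42-fold and 1.98-fold the single cultures, was kept out by the filter. Of the 8 members, 6 lay outside the range of the DMSO values after siGSTO1 (EGFR and ERRFI1 below, ERBB3, AREG, EREG and TGFA above). Of genes that passed the filter 69.4% lay outside, and so did EGFR, EREG, TGFA and ERRFI1, the 4 members that passed it. EREG and TGFA exceeded the higher DMSO culture by a ratio of only 1.008 and 1.004, and on the TMM scale of edgeR the EREG difference was below 0.

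The inhibitor C1-27 was profiled at 4 h and 24 h, to ask what changed early and late. At 4 h edgeR called 0 of 8 members, against 0.0208% of all genes, and DESeq2 also 0 of 8. At an unadjusted edgeR p under 0.05 stood 0 of 8, against 0.797% of all genes. No member passed 1.4-fold in RPKM (2.67% of genes, which became 0.943% without DMSO culture 1 and 14.4% without culture 2). EGFR, ERBB3, AREG, EREG and HBEGF lay below both DMSO cultures and none lay above, so 5 of 8 were outside their range. Of the 4 members that passed the RPKM filter, EGFR and EREG were outside, beside 40.5% of the genes that passed it. The most distant of the 8 members was HBEGF at 0.310 RPKM against 0.395 and 0.461 in DMSO, from 165 reads, with a log2 fold change of -0.46 (95% interval -1.35 to 0.43).

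After 24 h of C1-27, edgeR and DESeq2 again called 0 of 8 members at the adjusted threshold (0.36% of all genes in edgeR), while 2 of 8 had an unadjusted edgeR p under 0.05, against 4.28% of all genes. These were EREG and ERRFI1 in the main fit, and over 6 settings of the count test this number ran from 0 to 2. EREG and ERRFI1 were also the members past 1.4-fold in RPKM (6.72% of genes). The share of genes was 8.91% without DMSO culture 1 and 14.8% without culture 2. ERBB3, at 1.57-fold the DMSO mean, was kept out by the filter. Outside the range of the DMSO cultures lay 5 of 8. Of the 4 members that passed the filter, EGFR, EREG and ERRFI1 lay outside, beside 58.4% of the genes that passed it.

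EREG had 23.5 and 22.5 RPKM in DMSO (23.0 ± 0.713, SD, n = 2), 19.9 after C1-27 for 4 h, 14.7 after 24 h, 23.7 after siGSTO1 and 21.9 after C1-14. The 24 h culture with C1-27 was the lowest of the 6 and the siGSTO1 culture, also of 24 h, the highest. The ratio to the DMSO mean was 0.640, and 0.626 and 0.654 against the single cultures. The fitted log2 fold change was -0.70 (SE 0.30, 95% interval -1.28 to -0.11, edgeR unadjusted p = 0.0194, adjusted p = 0.860). Set directly against the 24 h C1-27 culture, siGSTO1 gave an EREG log2 difference of 0.63 (SE 0.33, 95% interval -0.03 to 1.28, adjusted p = 0.679), so the difference between these treatments did not pass.

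ERRFI1 had 18.7 RPKM after 24 h of C1-27, the lowest of the 6 libraries, and 28.1 after 4 h. The fitted log2 fold change against DMSO at 24 h was -0.59 (SE 0.28, edgeR unadjusted p = 0.0345, adjusted p = 0.9999). Its RPKM ratio was 0.576 against DMSO culture 2 and 0.863 against culture 1, so only the former passed 1.4-fold. The AREG row had 245 reads in this deepest library, with a log2 fold change of -0.42 (95% interval -1.26 to 0.41). TGFA (0.895 RPKM), HBEGF (0.405) and ERBB2 (0.407) lay between the DMSO values.

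**Figure D3:**
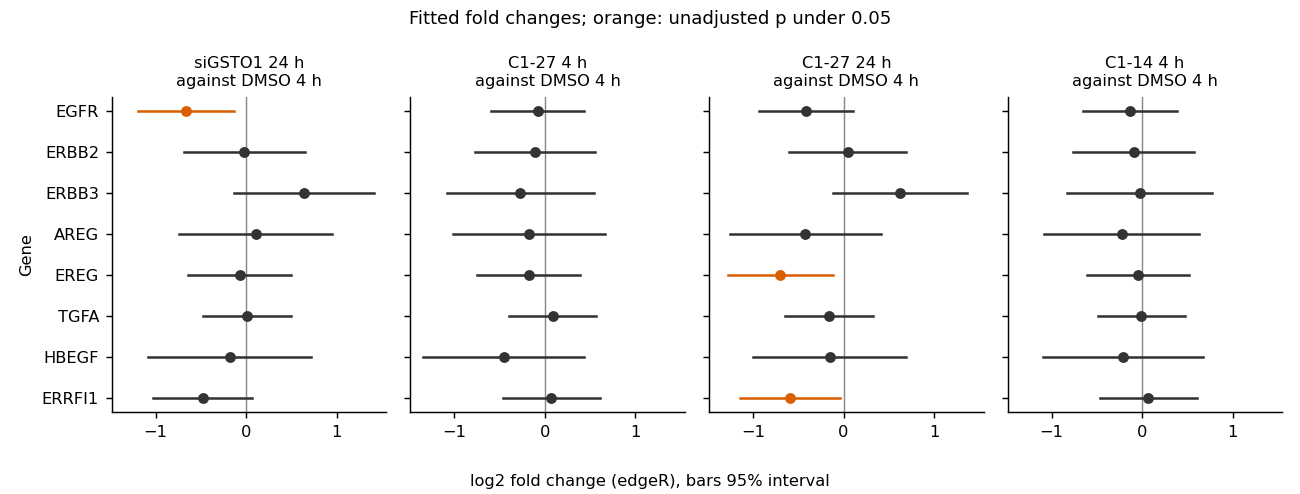
Fitted log2 fold change of each gene against DMSO (points) with its 95% interval (bars), edgeR, 1 panel per treated culture. The orange intervals, with an unadjusted p under 0.05, are EGFR for siGSTO1 (-0.67) and EREG (-0.70) and ERRFI1 (-0.59) for C1-27 at 24 h, and no point has an adjusted p under 0.05.

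Between 24 h and 4 h of C1-27, edgeR called 0 of 8 members (0.125% of all genes) and DESeq2 0 of 8, with 2 of 8 at an unadjusted edgeR p under 0.05 (2.9% of all genes). Under the other settings run, 0 or 1 of 8 had an unadjusted p under 0.05. ERBB3 was higher at 24 h by 0.89 on the log2 scale (SE 0.45, adjusted p = 1.0 in edgeR), and ERRFI1 lower, at -0.67 (SE 0.32, adjusted p = 1.0). EREG stood at -0.52 (95% interval -1.17 to 0.14) and EGFR at -0.33 (95% interval -0.93 to 0.26). For siGSTO1 against C1-27 at 24 h, the one contrast of 2 treatments at the same time, both tools called 0 of 8 members, and 0 of 8 had an unadjusted edgeR p under 0.05, where edgeR gave 1.43% and 8.06% of all genes. The ERBB3 difference there was 0.02 (95% interval -0.84 to 0.87) and the EGFR difference -0.25 (95% interval -0.85 to 0.34).

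C1-14 at 10 μM for 4 h left edgeR with 0 of 8 members called (0.139% of all genes), 0 of 8 at an unadjusted p under 0.05 (1.61%), and DESeq2 with 0 of 8. No member passed 1.4-fold (4.73% of genes, and 7.73% and 11.4% without DMSO culture 1 and culture 2). EGFR, AREG, EREG and HBEGF, 4 of 8, lay below both DMSO cultures. Of the 4 members that passed the RPKM filter, EGFR and EREG did so, and 48.8% of the genes that passed it lay outside the DMSO cultures. Log2 fold changes against DMSO ran from -0.23 (AREG) to 0.07 (ERRFI1). At the same time C1-27 at 1 μM gave -0.46 (HBEGF) to 0.09 (TGFA). As the doses differed, the compounds were not set against each other. At 4 h, side by side in the order C1-27, C1-14, EGFR had 1.52 and 1.47 RPKM, EREG 19.9 and 21.9, and ERRFI1 28.1 and 28.1.

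**Figure D4:**
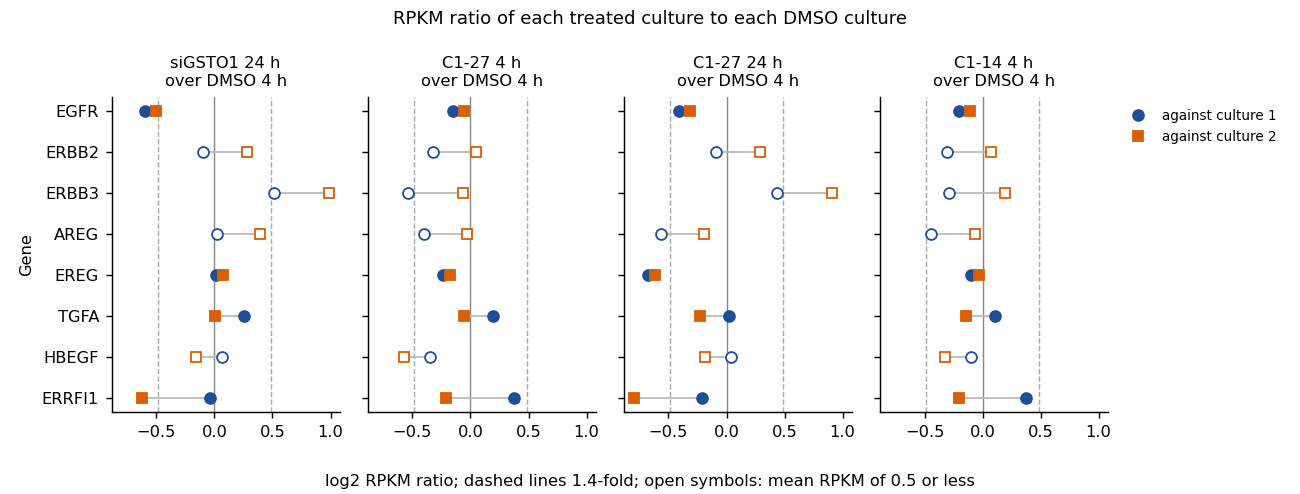
RPKM of each treated culture over each DMSO culture (log2 axis), circles for culture 1 and squares for culture 2, dashed lines at 1.4-fold, open symbols for genes with a mean RPKM of 0.5 or less. EGFR with siGSTO1 (0.660 and 0.705) and EREG with C1-27 at 24 h (0.626 and 0.654) pass the lower line against both cultures, whereas the ERRFI1 symbols lie far apart in every panel.

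The wider pathway was followed through 8 lists with 96 genes, 90 of them tested. After siGSTO1, 4 rose and 2 fell (adjusted p under 0.05 in edgeR, which called 4.91% of all genes), and the median log2 fold change over the lists was 0.04, beside 0.02 over all genes. Among the other EGF family ligands, 1 rose and 1 fell of 6 tested. NRG1, a neuregulin that binds ERBB3 and ERBB4, had 0.0207 and 0.0324 RPKM in DMSO (544 and 1487 reads), 0.00386 after siGSTO1 (114 reads), 0.0291 and 0.0175 after C1-27 for 4 h and 24 h, and 0.0249 after C1-14. The siGSTO1 culture was far below the other 5. NRG1 thus fell by 2.91 on the log2 scale (SE 0.38, 7.52-fold, edgeR adjusted p = 1.21e-11), and it was also lower than with C1-27 at 24 h (log2 difference -2.24, SE 0.40, adjusted p = 2.02e-05). NRG2, another neuregulin, had 0.0416 and 0.0405 RPKM in DMSO, 0.113 after siGSTO1 and 0.0325 to 0.0437 with the compounds. It rose by 1.34 on the log2 scale (SE 0.36, edgeR adjusted p = 0.00892), though not with DESeq2 (adjusted p = 0.0943), and was higher than with C1-27 at 24 h (log2 difference 1.59, SE 0.43, adjusted p = 0.0219 in edgeR, 0.0541 with its earlier method and 0.266 in DESeq2). Both genes were transcribed at a low rate per length.

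The other ligands of the lists were low and did not pass. EGF had 0.0100 to 0.0334 RPKM, BTC (betacellulin) 0.0328 to 0.0637, EPGN (epigen) 0.0670 to 0.172 and NRG4 0.0158 to 0.0555, and their log2 fold changes after siGSTO1 were 0.95, 0.25, 1.05 and 0.98. NRG3 had 0 to 5 reads and was not tested. ERBB4, the remaining receptor, had 5 to 28 reads per library (at most 5.23e-04 RPKM) and a log2 fold change of 0.32 after siGSTO1.

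CBLB is an E3 ubiquitin ligase that can mark EGFR for degradation. It was the 1 gene that rose of 20 on receptor turnover and inhibitors, near the 4.91% of all genes called. It had 0.131 and 0.175 RPKM in DMSO, 0.402 after siGSTO1, 0.148 and 0.272 after C1-27 for 4 h and 24 h and 0.140 after C1-14 (log2 fold change 1.27, SE 0.25, edgeR adjusted p = 6.79e-05 for siGSTO1). KSR1 is a scaffold for RAF, MEK and ERK. It was the 1 that rose of 20 adaptor and ERK relay genes, again near the 4.91% of all genes called. KSR1 had 0.200 and 0.135 RPKM in DMSO, 0.411 after siGSTO1 and 0.124 to 0.216 with the compounds (log2 fold change 1.20, SE 0.27, edgeR adjusted p = 7.34e-04). Of the 17 tested for PI3K, PLC gamma and STAT relay, the 6 of ligand shedding and the 10 ERK feedback genes, edgeR and DESeq2 called 0 each. At an unadjusted edgeR p under 0.05 stood 0, 1 and 2 of them, against 15.2% of all genes.

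Among 10 immediate-early targets tested after siGSTO1, 1 rose and 1 fell (4.91% of all genes were called), 6 had an unadjusted p under 0.05 (15.2% of all genes), and the median log2 fold change was 0.77, beside 0.02 over all genes. The direction was not shared, with 6 of 10 above 0 and a range from -0.81 to 1.52. EGR1, a transcription factor induced within minutes of ERK activity, had 3.15 and 2.64 RPKM in DMSO, 8.92 after siGSTO1, 6.71 after C1-27 for 24 h, and 3.07 and 3.38 after C1-27 and C1-14 for 4 h. It rose with siGSTO1 by 1.52 on the log2 scale (SE 0.32, edgeR adjusted p = 1.55e-04). With C1-27 at 24 h its log2 fold change was 1.17 (SE 0.31, adjusted p = 0.0527), which did not pass. FOSL1, an AP-1 subunit, had 7.67 and 7.07 RPKM in DMSO, 4.53 after siGSTO1, 4.56 after C1-27 for 24 h and 7.44 and 7.67 after C1-27 and C1-14 for 4 h. It fell with siGSTO1 by 0.81 (SE 0.27, adjusted p = 0.0485) but was not called by DESeq2 (adjusted p = 0.145), and the C1-27 log2 fold change at 24 h was -0.74 (SE 0.26, adjusted p = 0.437).

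In the other comparisons with DMSO, edgeR and DESeq2 each called 0 of 90 list genes. At an unadjusted edgeR p under 0.05 stood 0 of them with 4 h of C1-27 (0.797% of all genes), 11 with 24 h of C1-27 (4.28%) and 1 with C1-14 (1.61%). Between 24 h and 4 h of C1-27 both tools called 0 of 90, with 6 at an unadjusted edgeR p under 0.05 (2.9% of all genes). Between siGSTO1 and C1-27 at 24 h, edgeR called NRG1, NRG2 and DUSP4, 3 of 90 (1.43% of all genes). DUSP4, a nuclear phosphatase of ERK, had 2.51 and 1.75 RPKM in DMSO, 3.18 after siGSTO1 and 1.44 after C1-27 for 24 h, and was higher with siGSTO1 by 1.08 on the log2 scale (SE 0.31, edgeR adjusted p = 0.0439), a call that was lost under each of the 4 other settings run (adjusted p = 0.0585 to 0.566).

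**Figure D5:**
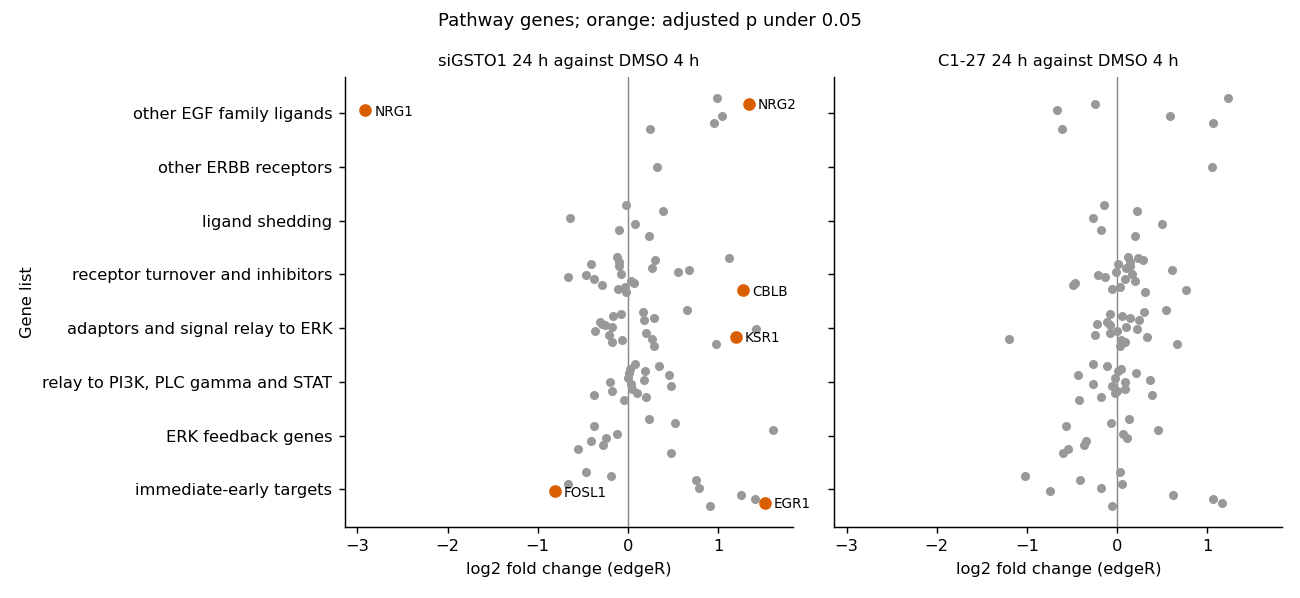
Fitted log2 fold change against DMSO (edgeR) of the tested genes on the 8 lists, 1 point per gene, for siGSTO1 (left) and for C1-27 at 24 h (right). Orange points have an adjusted p under 0.05, which are 6 genes on the left, with NRG1 at -2.91, and 0 on the right.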

How the data were processed

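Bru-seq gene tables of 6 HCT116 libraries were used. Per the labels and the submitters' processing notes, reads passed through CASAVA 1.8.2, Bowtie 0.12.8, TopHat 1.4.1 and bedtools 2.16.2 on hg19; the annotation is not given in the sources used here. Expected counts, deposited without normalization, give the reads of each gene by strand; not all were whole, and they were rounded. The deposited signal is reads per bp and was not tested. The RPKM values were computed by the authors from gene length and mapped reads.

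Genes above 300 bp with 10 counts in at least 2 libraries (14431) were fitted with edgeR 4.0.16 (TMM, quasi-likelihood, R 4.3.3) over 5 groups with 1 residual degree of freedom, so the spread rests on the DMSO pair, and p-values cover the spread between these cultures. Adjustment (Benjamini-Hochberg) ran over all genes. DESeq2 1.42.0, other scalings, no filter, fewer libraries and the earlier quasi-likelihood method (added after the data were seen) were alternatives. The statistics were tested on simulated data with planted changes larger than 1.4-fold, so how well smaller changes are found was not tested. RPKM ratios used the DMSO mean, above 0.5 RPKM. Members and lists were chosen with earlier results of these data known. Named were the 8 members, GSTO1, every listed gene with an edgeR adjusted p under 0.05 and the other ligands and ERBB4; genes of most similar pattern were to be named only for called members, so none are.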

Additional observations from a re-analysis of the deposited data

How the results depend on the processing

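The count of members called by the count test was 0 in all 6 comparisons under every setting run. At an unadjusted p under 0.05, 1 of 8 members stood under every setting for siGSTO1 against DMSO. For C1-27 at 24 h against DMSO the number was 2 in the main fit and with the earlier edgeR method. It was 0 with DESeq2 size factors in edgeR, and 1 with no filter, with DESeq2 and with the DMSO and treated libraries only. With siGSTO1, 2 members passed 1.4-fold with no RPKM filter (EGFR and ERBB3), against 43.2% of genes. With DESeq2 size factors 2 passed (EGFR and ERRFI1), against 19.9% of genes. Leaving out each DMSO culture in turn gave 1 to 2, with ERRFI1 added without culture 1. The share of genes was 25% without culture 1 and 18.2% without culture 2. For C1-27 at 24 h, leaving out each culture gave 1 to 2, and ERRFI1 was lost without culture 2. EREG stayed past 1.4-fold in both. The share of genes was 8.91% without culture 1 and 14.8% without culture 2. With no RPKM filter there were 3 members (ERBB3, EREG and ERRFI1), against 29.7% of genes. With siGSTO1, the TGFA log2 fold change near 0 changed sign to -0.03223 with DESeq2 size factors in edgeR, -0.003169 with no filter and -0.03133 with DESeq2. For siGSTO1 against C1-27 at 24 h, ERBB3 went to -0.0005835 with DESeq2 size factors and -0.0005837 with DESeq2. The cause was not tested. The other 219 member log2 fold changes kept their sign and their side of the adjusted p threshold.

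Over all genes, DESeq2 called 213 against 708 for siGSTO1, 0 against 3, 18 against 52 and 2 against 20 for C1-27 at 4 h, 24 h and C1-14, 5 against 18 for C1-27 over time and 22 against 206 for siGSTO1 against C1-27. Genes past 1.4-fold after siGSTO1 split 852 higher and 527 lower, but 561 and 907 with TMM factors and 494 and 1098 with DESeq2 size factors. Of the listed genes, the FOSL1 call with siGSTO1 was lost with no filter (adjusted p = 0.0982), DMSO and siGSTO1 libraries only (0.0615), the earlier edgeR method (0.0504) and DESeq2, the DUSP4 call for siGSTO1 against C1-27 at 24 h was lost with DESeq2 size factors (0.0585), no filter (0.0840), the earlier edgeR method (0.0647) and DESeq2, and the NRG2 call there with the earlier method (0.0541) and DESeq2. EGR1 with C1-27 at 24 h passed with DESeq2 size factors (0.0433) and with no filter (0.0394). No edgeR test remains without a DMSO culture, since no residual degree of freedom is left. Summing AREG with its copy was not run, as no separate row lists one. No paired analysis was possible because only the DMSO group has replicate numbers. The 2 DMSO cultures were not alike as controls. Against culture 2 alone, 0.943% of genes passed 1.4-fold for C1-27 at 4 h, 8.91% at 24 h and 7.73% for C1-14. Against culture 1 alone the shares were 14.4%, 14.8% and 11.4%. For siGSTO1 the order was reversed, at 25% against culture 2 and 18.2% against culture 1. The DMSO mean and spread join both cultures, and why they differed was not tested. Depth limits ERBB2, ERBB3, AREG and HBEGF most, with 127 to 758 reads per library.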
